A study of Homo sapiens with 12 samples.

Results

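The receptors through which epithelial cells sense bacterial products, and the proteins that pass their signal on, were followed as 10 genes in NCM460 cells: the cytosolic receptors NOD1 and NOD2 with their kinase RIPK2, the membrane receptors TLR1, TLR2, TLR4 and TLR5, their adaptor MYD88, and IRAK2 and IRAK3 of the kinase family that binds it. The genes were taken from the expression table by name, and all 10 were present among its 58735 genes. NCM460 is an established line labelled as normal human colonic epithelium. The table holds 12 libraries in 4 groups of 3: wild-type cells in medium, wild-type cells given TNF-α, wild-type cells given TNF-α with 5-OH-TMT (bufotenidine in the labels, a quaternary indole alkaloid), and cells with HTRA2 knocked down and given TNF-α. HTRA2 is a serine protease of the mitochondrion, and the study examined it as the protein that 5-OH-TMT binds. The study describes its knockdown against a control siRNA, but the labels name none for the TNF-α libraries and do not tell which siRNA was used, so transfection and the loss of HTRA2 cannot be told apart here. The study chose a noncytotoxic concentration of 5-OH-TMT for its work in this line, but no dose or time is tied to these libraries in the sources used here. Nor do these say whether replicates were separate cultures, so p-values measure only the spread between these libraries.

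NOD1 and NOD2 bind fragments of the bacterial cell wall in the cytosol and recruit RIPK2, while Toll-like receptors bind lipoproteins, lipopolysaccharide or flagellin at membranes and recruit MYD88 and the IRAK kinases. Both routes end at the kinases that activate NF-κB and the MAP kinases, the same ones that TNF-α reaches through its own receptor. In the intestine these receptors are known for keeping epithelial defence in step with the bacteria present, and NOD2 is known for its genetic link with Crohn's disease.

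The libraries held 31008429 to 37624399 reads on genes. HTRA2 had an FPKM (fragments per kilobase of gene, scaled to library size) of 15.4, 13.96 and 14.2 in the TNF-α libraries and of 7.44, 7.18 and 7.22 in the knockdown, a log2 change of -0.98 (SE 0.087, adjusted p = 2.8e-05). Knockdown library 2 stood apart from its group: its reads differed from those of libraries 1 and 3 by 35.0 and 45.4 in chi-squared per degree, against 7.35 between libraries 1 and 3, and 2.95% of its reads lay on mitochondrial genes. Of the markers of epithelium, 5 of 5 had a mean FPKM of at least 1. Of 5 markers of colonic epithelium none did, and CDX1, CDX2, VIL1 and KRT20 were at 3 reads or fewer in every library, so the colonic identity in the label was not seen in these transcripts. In a bulk sample, fewer cells that express a gene and less RNA per cell cannot be told apart.

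The 10 genes spanned a wide range of levels. Transcripts of MYD88 and RIPK2 were far more abundant than those of the receptors, whereas IRAK3 was the lowest of the 10. In medium the order by mean FPKM was MYD88 at 15.6 ± 1.61 (SD, n = 3 here and below), RIPK2 at 9.78 ± 0.65, IRAK2 at 2.07 ± 0.041, NOD1 at 1.67 ± 0.34, TLR2 at 0.436 ± 0.044, TLR1 at 0.278 ± 0.13, TLR4 at 0.209 ± 0.054, NOD2 at 0.131 ± 0.043, TLR5 at 0.0779 ± 0.042 and IRAK3 at 0.00612 ± 0.011. TLR1, TLR4, NOD2 and TLR5 overlapped with their neighbours in this order, as did IRAK2 and NOD1. With the knockdown the order began with IRAK2 at 28.7 ± 0.88, MYD88 at 20.2 ± 3.13 and RIPK2 at 16.6 ± 0.94, and NOD1 at 1.52 ± 0.17 and TLR2 at 1.499 ± 0.12 lay within their spread. Changes are given below as log2 fold changes of FPKM + 0.1, which understate the change of genes with a low FPKM, and a gene is said to have risen or fallen where limma's adjusted p was under 0.05. The filter, a mean FPKM of at least 0.1, was passed by 8 of the 10 genes, and TLR5 and IRAK3 lay under it.

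**Figure D1:**
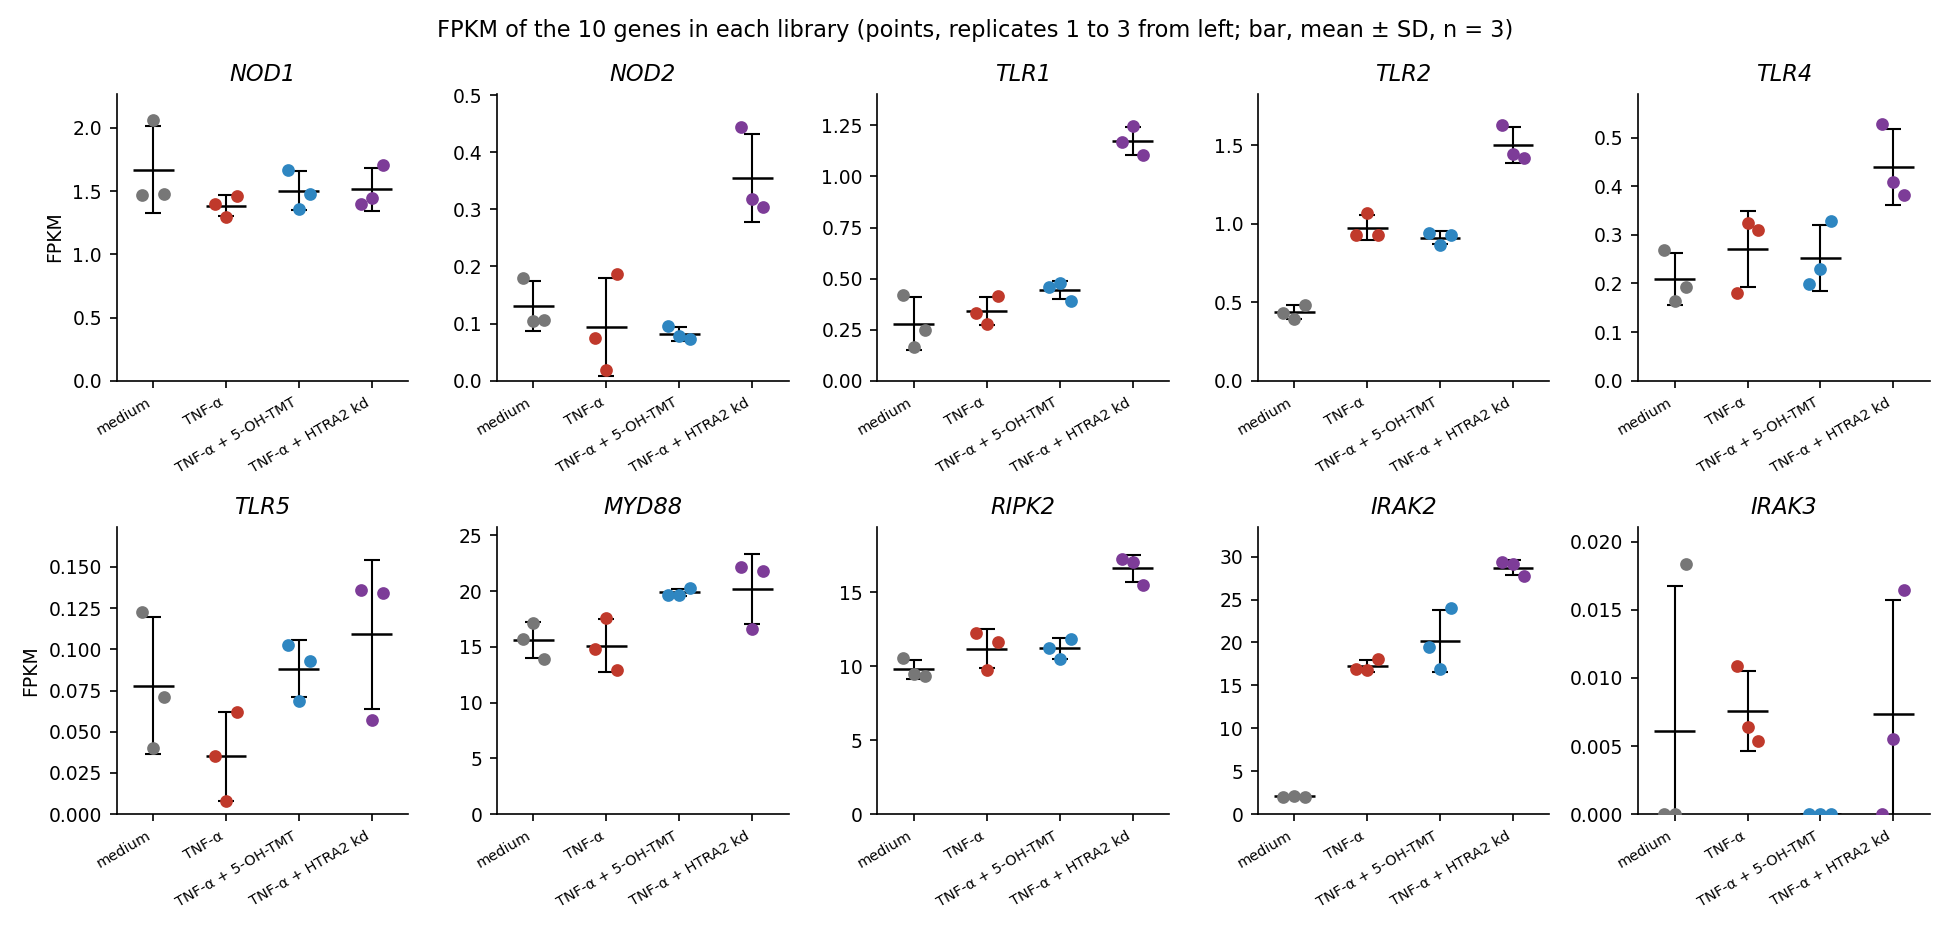
FPKM of each of the 10 genes (y axis, from 0, own scale per gene) in the 12 libraries, grouped on the x axis by treatment (medium, TNF-α alone, 5-OH-TMT added, HTRA2 knocked down); points are libraries 1 to 3 and bars the mean ± SD (n = 3). IRAK2 rises from about 2.07 in medium to 17.3 with TNF-α and 28.7 with the knockdown, while NOD1 stays between 1.29 and 2.07 in all 12 libraries.

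The cytosolic receptor NOD1, which binds peptides typical of Gram-negative bacteria, lies on chromosome 7 (ENSG00000106100, GRCh38, minus strand, 30424527 to 30478784). Its FPKM was 1.47, 2.07 and 1.48 in medium, 1.40, 1.29 and 1.46 with TNF-α, 1.67, 1.36 and 1.48 with 5-OH-TMT, and 1.39, 1.44 and 1.71 with the knockdown. The TNF-α libraries lay just below those in medium, and all other groups overlapped. None of the fitted changes passed the test: TNF-α against medium gave -0.24 (SE 0.15, adjusted p = 0.516) and the knockdown against TNF-α gave 0.12 (95% interval -0.20 to 0.44, adjusted p = 0.636). NOD1 shared 741 exon bases with an antisense gene that had no reads.

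NOD2, the receptor of muramyl dipeptide, lies on chromosome 16 (ENSG00000167207, GRCh38, plus strand, 50693588 to 50734041) and was scarcely expressed outside the knockdown. It had 43, 23 and 24 reads in medium, 19, 4 and 48 with TNF-α, 23, 19 and 18 with 5-OH-TMT, and 110, 79 and 76 with the knockdown. Every knockdown library was above every library of the other groups, and the 3 TNF-α libraries were the most scattered. In FPKM the knockdown mean was 0.355 ± 0.077 against 0.0938 ± 0.086 with TNF-α and 0.0819 ± 0.012 with 5-OH-TMT, that is 3.79 and 4.34 times as high. NOD2 rose with the knockdown against TNF-α (1.31, SE 0.35, adjusted p = 0.0236) and against 5-OH-TMT (1.31, SE 0.35, adjusted p = 0.0278).

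These calls for NOD2 depended on single libraries. Without TNF-α library 2, the one with 4 reads, the change against TNF-α was 1.01 (adjusted p = 0.0847). It also missed the threshold without TNF-α library 1 (1.29, adjusted p = 0.0597) or knockdown library 1 (1.18, adjusted p = 0.0899), and passed it without the knockdown library that stood apart (1.37, adjusted p = 0.0415). TNF-α against medium gave -0.33 (SE 0.35, adjusted p = 0.751). 5-OH-TMT against TNF-α gave 0.0013 with a 95% interval from -0.77 to 0.77, so the values do not tell whether there was a change within these bounds. NOD2 shared 202 exon bases with an antisense gene whose mean FPKM was 0.0484, and the library kit does not mark strand. The ratio of NOD2 to NOD1 in FPKM was 0.0144 to 0.128 with TNF-α and 0.177 to 0.318 with the knockdown.

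RIPK2, the kinase that both NOD receptors recruit, lies on chromosome 8 (ENSG00000104312, GRCh38, plus strand, 89757747 to 89791063). Its FPKM was 10.5, 9.45 and 9.35 in medium, 12.2, 9.70 and 11.6 with TNF-α, 11.2, 10.5 and 11.9 with 5-OH-TMT, and 17.2, 17.0 and 15.5 with the knockdown. The knockdown libraries lay above all the others, which overlapped among themselves. RIPK2 rose by 0.57 (SE 0.093, adjusted p = 0.0014) against TNF-α, a mean 1.48 times as high, and the call remained without each of the 6 libraries in turn (0.47 to 0.64). TNF-α alone gave 0.19 (adjusted p = 0.392).

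The Toll-like receptors were read as TLR2 with its partner TLR1, which together bind triacylated lipoproteins, then TLR4, the receptor of lipopolysaccharide, and TLR5, the receptor of flagellin. TLR2 lies on chromosome 4 (ENSG00000137462, GRCh38, plus strand, 153684070 to 153705702). Its FPKM was 0.432, 0.394 and 0.481 in medium, 0.930, 1.07 and 0.925 with TNF-α, 0.943, 0.863 and 0.927 with 5-OH-TMT, and 1.63, 1.45 and 1.42 with the knockdown. The libraries formed 3 separate levels, with medium lowest, TNF-α and 5-OH-TMT overlapping in the middle and the knockdown highest. TLR2 rose with TNF-α (1.01, SE 0.13, adjusted p = 0.00061) and again with the knockdown (0.57, SE 0.13, adjusted p = 0.0097), the means being 2.24 and 1.54 times as high. 5-OH-TMT gave -0.087 (95% interval -0.37 to 0.20, adjusted p = 0.740).

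TLR1 lies on chromosome 4 as well (ENSG00000174125, GRCh38, minus strand, 38790677 to 38856817), beside TLR6, which also pairs with TLR2. It had 66, 24 and 37 reads in medium, 55, 39 and 70 with TNF-α, 73, 77 and 64 with 5-OH-TMT, and 191, 204 and 183 with the knockdown. The knockdown libraries stood far above the rest, and the other 3 groups overlapped. Against TNF-α the change was 1.54 (SE 0.24, adjusted p = 0.0010), the mean being 3.45 times as high, and against 5-OH-TMT it was 1.23 (SE 0.24, adjusted p = 0.0058). Unlike TLR2, TLR1 did not pass the test with TNF-α (0.26, SE 0.24, adjusted p = 0.693), though the difference between both genes was not tested. TLR1 and TLR6 shared 57 exon bases, and 2.48% of the 100-base windows of TLR1 transcripts also occurred in TLR6, so a small part of the reads could belong to either gene.

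TLR4 lies on chromosome 9 (ENSG00000136869, GRCh38, plus strand, 117704175 to 117724730). It had 124, 70 and 84 reads in medium, 88, 134 and 153 with TNF-α, 93, 108 and 157 with 5-OH-TMT, and 253, 196 and 185 with the knockdown. Every knockdown library was above every other library, but TLR4 did not pass the test against TNF-α (0.56, 95% interval -0.011 to 1.12, adjusted p = 0.169) or against 5-OH-TMT (0.62, 95% interval 0.057 to 1.19, adjusted p = 0.130). On the recovered reads, where voom weights each value by its precision, the same changes were 0.73 (adjusted p = 0.0373) and 0.84 (adjusted p = 0.0203). Of 9 alternatives with all libraries, voom was the 1 that called TLR4 in these comparisons, and none of the 6 fits with a library left out did. TLR4 shared 558 exon bases with AL160272.2, a protein-coding gene on the same strand whose mean FPKM was 0. Of the 100-base windows of TLR4 transcripts, 3.44% also occurred in that gene.

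TLR5 (ENSG00000187554, chromosome 1, GRCh38, minus strand, 223109406 to 223143282) was nearly absent. It had 33, 10 and 18 reads in medium, 10, 2 and 18 with TNF-α, 28, 19 and 26 with 5-OH-TMT, and 38, 16 and 38 with the knockdown. The 5-OH-TMT libraries lay just above those with TNF-α, and the knockdown overlapped with TNF-α. In a fit without the filter 5-OH-TMT gave 0.49 (SE 0.25, adjusted p = 0.462) and the knockdown 0.62 (SE 0.25, adjusted p = 0.185).

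**Figure D2:**
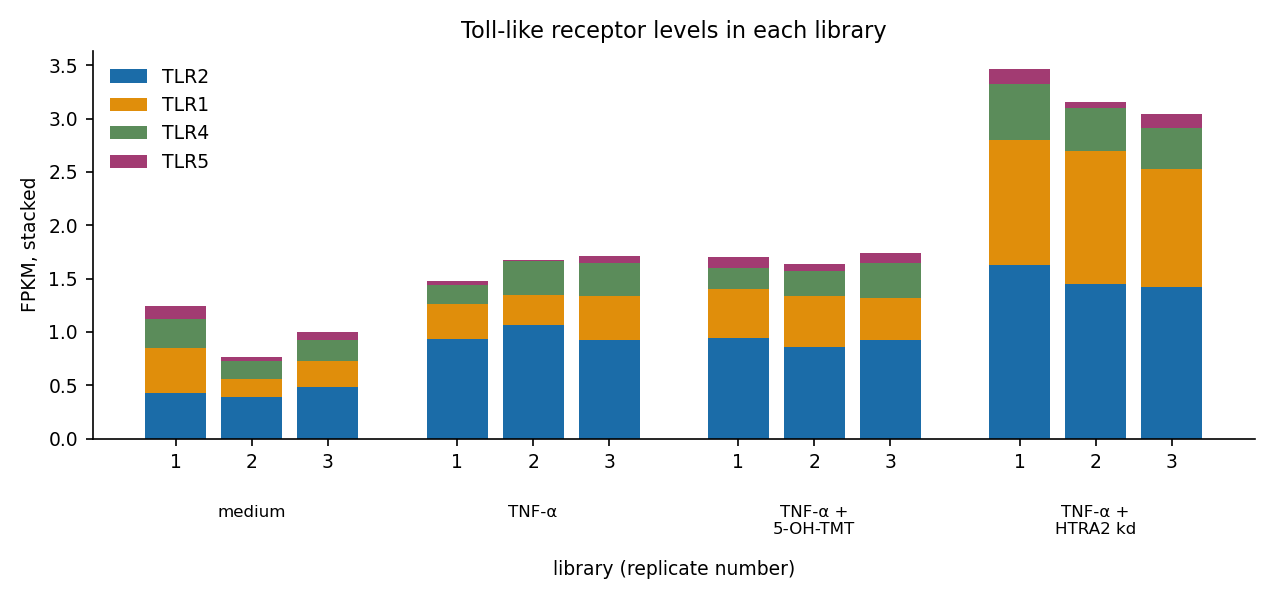
Stacked FPKM of TLR2, TLR1, TLR4 and TLR5 (y axis, from 0) in each of the 12 libraries (x axis, replicate number within group). The 4 receptors sum to 0.764 to 1.24 in medium, 1.48 to 1.71 with TNF-α, 1.64 to 1.74 with 5-OH-TMT and 3.04 to 3.46 with the HTRA2 knockdown.

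Summed over the 4 receptors, the FPKM was 0.764 to 1.24 in medium, 1.48 to 1.71 with TNF-α, 1.64 to 1.74 with 5-OH-TMT and 3.04 to 3.46 with the knockdown. TLR2 made up 34.7 to 51.6% of the sum in medium, 54.1 to 63.8% with TNF-α, 52.7 to 55.4% with 5-OH-TMT and 45.8 to 47.1% with the knockdown. The ratio of TLR1 to TLR2 was 0.418 to 0.973 in medium, 0.258 to 0.447 with TNF-α, 0.423 to 0.554 with 5-OH-TMT and 0.716 to 0.863 with the knockdown. For both measures the range in medium contained that of the knockdown, and the differences were not tested.

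MYD88, the adaptor that every Toll-like receptor of this group recruits, lies on chromosome 3 (ENSG00000172936, GRCh38, plus strand, 38138478 to 38143022). Of the 9 RefSeq promoters that matched 8 of the genes (250 bases before to 50 after the start, GRCh38.p14), only that of MYD88 held a match to any of 5 motifs searched on both strands. The motifs were the κB consensus (GGG, a purine, any 2 bases, 2 pyrimidines, CC) and the interferon response element core (TTTC, any 2 bases, TTTC). The others were the GAS element TTCNNNGAA, the AP-1 element TGANTCA and the box TATAAA. In this order the motifs occurred in 11.3%, 3.57%, 7.66%, 7.71% and 11.5% of 35114 promoters. Shorter or looser forms of the κB site were not searched. The stretch of MYD88 that holds the matches, chr3:38138587-38138616 on the plus strand, is shown because it is the one promoter match among these genes, with the letters of both overlapping matches in capitals (the GAS element, and the interferon element read on the other strand).

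MYD88: gcggcgcTTCTCGGAAAGCGAAAgccggcg

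The capitals begin 67 bases before the RefSeq start, but lie inside the bounds of the gene given above, which begin at 38138478. A match is a description of letters and no measure of binding, and the other windows held no match within their 300 bases.

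The FPKM of MYD88 was 15.7, 17.2 and 13.9 in medium, 14.8, 17.6 and 12.9 with TNF-α, 19.7, 19.7 and 20.3 with 5-OH-TMT, and 22.2, 16.6 and 21.8 with the knockdown. The 5-OH-TMT libraries were nearly equal and all above those with TNF-α, whereas knockdown library 2 fell among the TNF-α libraries. 5-OH-TMT against TNF-α gave 0.40 (SE 0.13), with a mean 1.31 times as high, an unadjusted p of 0.0089 and an adjusted p of 0.137, so MYD88 did not pass the test. The knockdown gave 0.41 (SE 0.13, adjusted p = 0.0460), which passed narrowly, and 0.55 (adjusted p = 0.0085) without knockdown library 2.

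The call for MYD88 in the knockdown was lost without TNF-α library 1 (0.40, adjusted p = 0.109), TNF-α library 3 (0.31, adjusted p = 0.163), knockdown library 1 (0.34, adjusted p = 0.163) or knockdown library 3 (0.35, adjusted p = 0.137). The knockdown and 5-OH-TMT differed by 0.0098 (95% interval -0.27 to 0.29, adjusted p = 0.977). Both contrasts against TNF-α use the same 3 TNF-α libraries.

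IRAK2, a kinase relative that sustains signalling downstream of MYD88, lies on chromosome 3 (ENSG00000134070, GRCh38, plus strand, 10164865 to 10243743) and had the largest response of the 8 genes tested with TNF-α. Its FPKM was 2.06, 2.11 and 2.03 in medium, 16.9, 16.8 and 18.1 with TNF-α, 19.5, 16.9 and 24.0 with 5-OH-TMT, and 29.3, 29.1 and 27.7 with the knockdown. Medium lay far below all else, the knockdown above all else, and the 5-OH-TMT libraries scattered from the level of TNF-α upwards. IRAK2 rose by 3.00 (SE 0.10, adjusted p = 9.2e-09) with TNF-α and by a further 0.73 (SE 0.10, adjusted p = 0.00054) with the knockdown, the means being 8.37 and 1.66 times as high.

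For IRAK2, 5-OH-TMT gave 0.21 (95% interval -0.016 to 0.43, adjusted p = 0.283), and the knockdown stood above 5-OH-TMT by 0.52 (SE 0.10, adjusted p = 0.0062). IRAK2 was 0.123 to 0.146 times the FPKM of MYD88 in medium, 0.956 to 1.40 times with TNF-α, 0.861 to 1.18 times with 5-OH-TMT and 1.27 to 1.76 times with the knockdown, whose range overlapped with that of TNF-α. IRAK3, a member of the family known as a brake on this signal, lies on chromosome 12 (ENSG00000090376, GRCh38, plus strand, 66188879 to 66254622). It had 0, 0 and 6 reads in medium, 4, 2 and 2 with TNF-α, none in the 5-OH-TMT libraries, and 0, 2 and 6 with the knockdown. These are at or near the floor of 3 reads, and no fold is given.

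**Figure D3:**
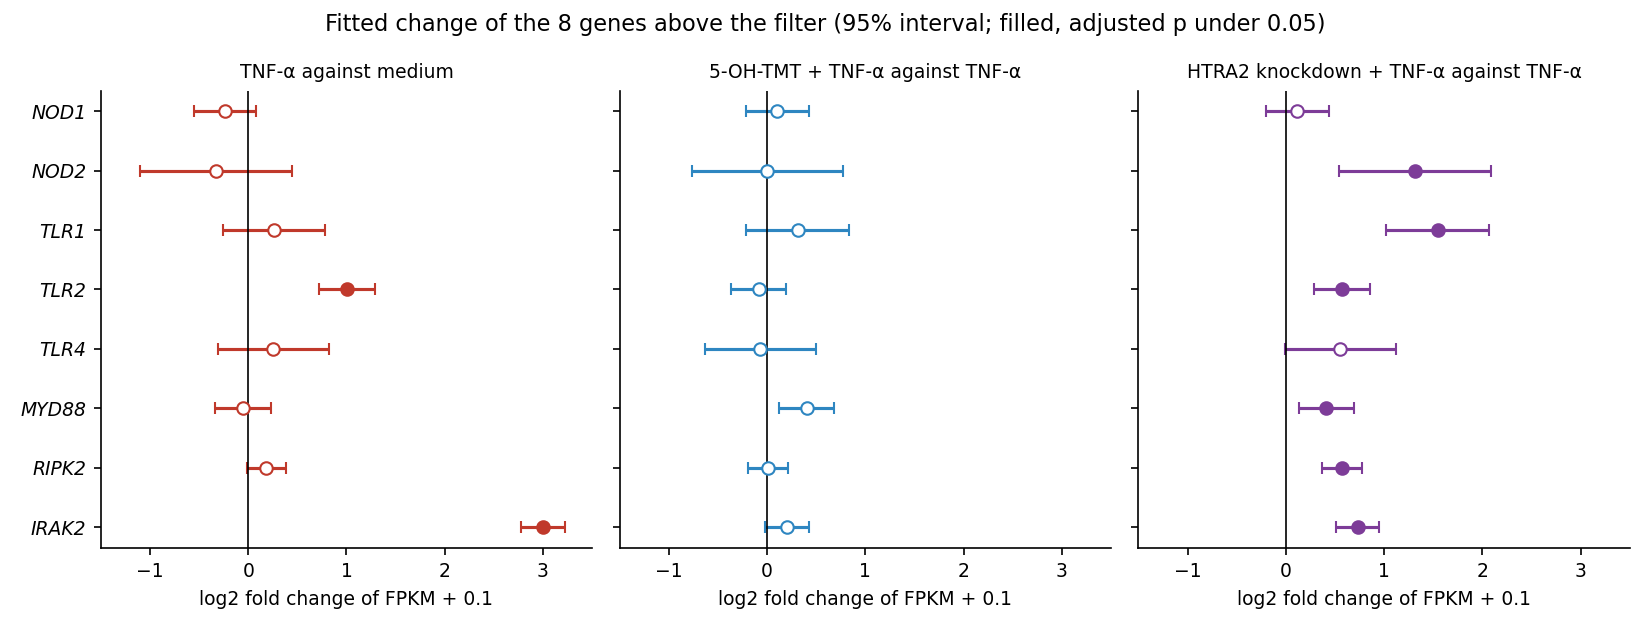
Fitted log2 fold change of FPKM + 0.1 (x axis) with its 95% interval for the 8 genes above the filter (y axis), for TNF-α against medium, 5-OH-TMT with TNF-α against TNF-α, and HTRA2 knockdown with TNF-α against TNF-α; filled points have an adjusted p under 0.05. TLR2 and IRAK2 are filled with TNF-α, none with 5-OH-TMT, and 6 of 8 with the knockdown.

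Counted over the 8 genes above the filter, TNF-α raised 2, TLR2 and IRAK2, and lowered none, where 3.22% of all 18079 genes tested were called higher. The median change of the 8 genes was 0.22, beside -0.0020 over all genes. Libraries without overlap were seen in 2 of the 8 genes in the higher direction and in NOD1 in the lower one, against 11.1% and 8.74% of all genes. Both TLR2 and IRAK2 also changed at least 2-fold with an unadjusted p of at most 0.05, the thresholds stated in the study's methods, as did 1.76% of all genes in that direction.

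With 5-OH-TMT none of the 8 genes was called by limma, where 0.0387% of all genes were called in either direction and 0.0332% higher. At an unadjusted p under 0.05 the count was 1, MYD88, against 20.1% of all genes, and voom also called none of the 8. MYD88 was also the one gene of the 8 whose libraries all lay above those with TNF-α, against 16.3% of all genes. The median change was 0.057, beside 0 over all genes.

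The knockdown against TNF-α raised 6 of the 8 genes (NOD2, RIPK2, TLR1, TLR2, MYD88 and IRAK2) and lowered none, where 9.35% of all genes were called higher. The count was also 6 without knockdown library 2, and from 4 to 6 over the 6 libraries left out in turn. The median change was 0.57, beside -0.0034 over all genes, and the change exceeded 2-fold by the study's thresholds for NOD2 and TLR1, against 3.08% of all genes. All 3 libraries were above all 3 with TNF-α in 6 genes, TLR4 included and MYD88 not, against 17.5% of all genes. For a single gene the exact permutation test of 3 libraries against 3 can give no p below 0.1, which it gave for each of these 6.

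Against 5-OH-TMT the knockdown raised 5 genes (NOD2, RIPK2, TLR1, TLR2 and IRAK2) and lowered none, where 7.85% of all genes were called higher. Without knockdown library 2 the count was 4, since NOD2 then had an adjusted p of 0.0618 (1.37). With each of the 6 libraries left out in turn, NOD2 was called in only 1 fit (limma's adjusted p 0.0434 to 0.0907). The median change was 0.59, beside 0.010 over all genes. NOD2 and TLR1 exceeded 2-fold by the study's thresholds, against 2.18% of all genes, and 6 of the 8 genes had libraries without overlap, against 18.2%. This comparison uses the same knockdown libraries as the one against TNF-α.

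Some markers of other cell types moved with TNF-α and with the knockdown too. The summed FPKM of 3 endothelial markers was 0.491 to 0.597 in medium and 1.42 to 1.57 with TNF-α. Only CDH5 among them rose (1.71, adjusted p = 0.00011), beside the rises of TLR2 and IRAK2 with TNF-α. The means of the others were lower with TNF-α, PECAM1 going from 0.148 to 0.112 (-0.23, adjusted p = 0.814) and VWF from 0.0778 to 0.0573. The summed FPKM of 6 myeloid markers was 0.261 to 0.360 with TNF-α and 0.676 to 0.791 with the knockdown. CSF1R made up most of it and rose with the knockdown, from 0.190 ± 0.026 to 0.604 ± 0.048 (1.28, adjusted p = 0.0013). ITGAM had 0 reads in medium, 10 to 14 with TNF-α and 13 to 30 with the knockdown. None of the 6 reached a mean FPKM of 1, AIF1 was at 0 in every library, and PTPRC had 0 reads in the TNF-α libraries. The 3 T cell markers were at 3 reads or fewer in every library. Of the fibroblast markers the sum was 0.974 to 1.31 with TNF-α and 2.60 to 3.24 with the knockdown. Most of this sum was COL1A1, which rose with the knockdown (1.23, adjusted p = 0.00013), while DCN was at 0 in every library. With the knockdown the endothelial sum was 2.21 to 3.62, and CDH5 rose again (0.997, adjusted p = 0.0024), while PECAM1 did not pass the test (0.28, adjusted p = 0.595). The share of reads on genes with a mean FPKM under 1 was 0.923 to 1.002% with TNF-α and 1.03 to 1.17% with the knockdown. The part of these in the results for NOD2, TLR1, TLR2 and IRAK2 was not tested.

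The rest of the pathway was read from 55 further genes, of which 44 passed the filter. TNF-α raised 8 of the 44 and lowered none (4.1% of all genes were called in either direction), and their median change was 0.057. The largest rises were in TNFAIP3, a deubiquitinase that restrains both arms, from an FPKM of 1.22 ± 0.097 to 28.3 ± 0.75 (4.43, SE 0.15, adjusted p = 9.2e-09), in BIRC3, a ubiquitin ligase of the NOD arm, from 0.602 ± 0.20 to 4.99 ± 0.35 (2.89, SE 0.22, adjusted p = 9.6e-06), and in IKBKE, a kinase that acts on interferon regulatory factors, from 4.57 ± 0.30 to 14.7 ± 1.47 (1.66, SE 0.12, adjusted p = 6.7e-06). The co-receptor CD14 went from 0.397 ± 0.15 to 0.0946 ± 0.043 and did not pass the test (-1.33, adjusted p = 0.0610). With 5-OH-TMT none of the 44 was called by limma, voom called 1, and limma with only the 2 groups compared called 2. An unadjusted p under 0.05 was seen in 11 of the 44, where 20.1% of all genes had one, and the median change was 0.023.

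The knockdown against TNF-α raised 13 of the 44 genes and lowered 1, where 17.4% of all genes were called in either direction, and the median change was 0.27. Of all genes, 9.35% were called higher. By role, the knockdown raised 2 of the 2 other Toll-like receptors above the filter and 1 of 2 adaptors, sets too small to compare. It raised 2 of 5 co-receptors and chaperones and 2 of 16 kinases and ligases of the Toll-like receptor arm. It also raised 3 of 14 genes of the NOD arm and 3 of 5 inhibitors. Among those averaging an FPKM of 1 or more, the largest rises were in TNFAIP3, from 28.3 ± 0.75 to 57.3 ± 2.25 (1.02, SE 0.15, adjusted p = 0.00070), in TLR6, from 1.64 ± 0.20 to 3.03 ± 0.57 (0.84, SE 0.14, adjusted p = 0.0017), and in BIRC3, from 4.99 ± 0.35 to 9.05 ± 1.94 (0.83, SE 0.22, adjusted p = 0.022). The one gene that fell was IRAK1, a kinase that IRAK4 activates downstream of MYD88, from 217.4 ± 20.6 to 155.3 ± 21.2 (-0.49, SE 0.11, adjusted p = 0.0087). IRAK2 was 0.0699 to 0.0895 times the FPKM of IRAK1 with TNF-α and 0.157 to 0.217 times with the knockdown.

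Genes of the pathway with a lower mean FPKM, named after their values were seen, held larger changes. SLC15A3, a transporter that carries muramyl dipeptide out of endosomes, went from an FPKM of 0.370 ± 0.022 with TNF-α to 2.30 ± 0.65 with the knockdown (2.32, SE 0.24, adjusted p = 7.4e-05). CD14 and LY96, which deliver and hold lipopolysaccharide at TLR4, went from 0.0946 ± 0.043 to 0.443 ± 0.25 (1.41, adjusted p = 0.0163) and from 0.551 ± 0.21 to 1.44 ± 0.10 (1.30, adjusted p = 0.0048). Both rested on few reads. CD14 had 4 to 10 reads with TNF-α and 20 to 50 with the knockdown, where its FPKM spread from 0.294 to 0.727. LY96 had 6 to 16 reads with TNF-α and 29 to 33 with the knockdown. TLR3, the receptor of double-stranded RNA, went from 0.407 ± 0.062 to 1.07 ± 0.060 (1.22, adjusted p = 0.0024).

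Against 5-OH-TMT the knockdown raised 11 of the 44 and lowered 2, where 15.3% of all genes were called in either direction. SLC15A3 rose most of the 44 (1.84, SE 0.24, adjusted p = 0.00060). Among genes averaging an FPKM of 1 or more, the rises were led by TNFAIP3 (0.95, SE 0.15, adjusted p = 0.0017), BIRC3 (0.90, SE 0.22, adjusted p = 0.019) and TLR6 (0.80, SE 0.14, adjusted p = 0.0035), and the genes that fell were IRAK1 (-0.65, SE 0.11, adjusted p = 0.0025) and PELI3, a ubiquitin ligase of the IRAK kinases (-0.37, SE 0.11, adjusted p = 0.0464). The count of 13 came to 6, 7 or 8 without 5-OH-TMT library 1, 2 or 3, and to 8 without knockdown library 2. LY96 and CD14 did not pass the test in this comparison (0.63, adjusted p = 0.123, and 0.53, adjusted p = 0.347).

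**Figure D4:**
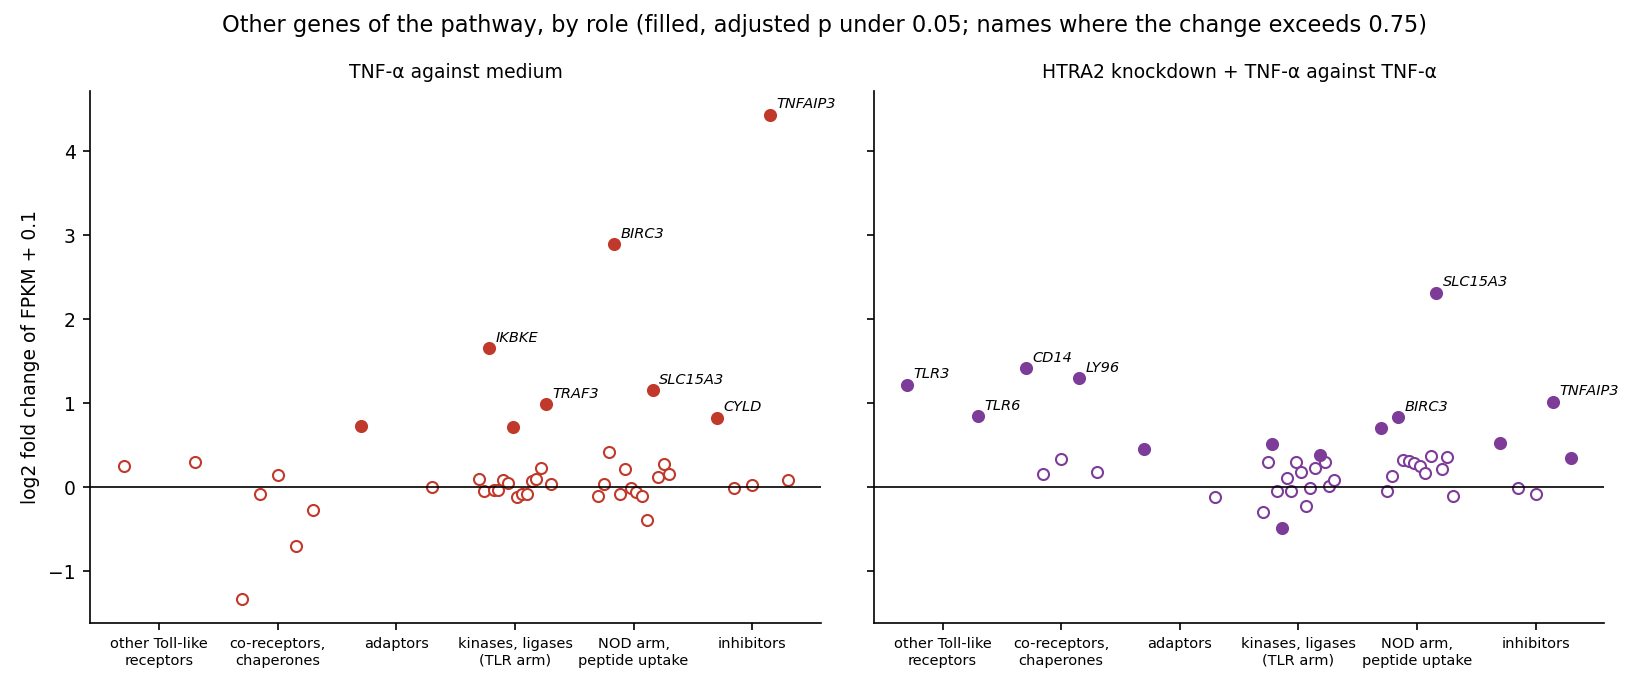
Log2 fold change of FPKM + 0.1 (y axis) of the 44 other pathway genes above the filter, by role (x axis), for TNF-α against medium and for HTRA2 knockdown with TNF-α against TNF-α; filled points have an adjusted p under 0.05, and names are given where the change is above 0.75. TNFAIP3 (4.43) and BIRC3 (2.89) lead with TNF-α, and SLC15A3 (2.32) with the knockdown, where 2 of 2 other Toll-like receptors are filled.

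The genes whose pattern was most like that of 5 called members, among 11185 genes averaging an FPKM of 1 or more and over the 12 libraries, are given by Pearson's r of the log2 values, a description in which all points share the 4 group means. IRAK2 was most like TNFAIP3 (0.999) and NFKBIA (0.998). TLR2 was most like CLDN1 (0.989) and DAPP1 (0.985), and RIPK2 most like NBR1 (0.976) and CARD16 (0.972). MYD88 was most like ITGB4 (0.971) and GUCD1 (0.971), and NOD2, at the lowest level of these 5, had the weakest matches, VTCN1 (0.939) and KLF9 (0.933).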

How the data were processed

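The file that the authors deposited gives FPKM for each library beside the gene lengths, from poly(A)-selected NEBNext libraries. Per the submitters' processing notes, CASAVA 1.8, HISAT2 2.0.4, HTSeq 0.9.1 and hg38 were used, and 99.9% of gene coordinates equal those of GENCODE 29. The members and gene lists were chosen with earlier results of these data known. Whole reads were recovered as FPKM × gene length × the library's divisor (100% of values whole within 0.02). With R 4.3.3 and limma 3.58.1, log2(FPKM + 0.1) of all 12 libraries was modelled by group for 18079 genes whose FPKM averaged at least 0.1 (8 residual degrees of freedom), with eBayes and a trend. Tests were two-sided with Benjamini-Hochberg adjustment over all genes tested. Genes under the filter came from a fit to 31951 genes. The fit was also run on simulated data in which only genes with many reads were changed, so that run does not bear on genes with few reads. The 10 members were all named. From the pathway list, per contrast, the 3 genes that rose and the 3 that fell most were named among called genes averaging an FPKM of 1 or more. Reads per library limit precision for genes with few reads. The alternatives were other pseudocounts, filters and scalings, only the groups compared, no trend, a replicate block, voom on the recovered reads, and each library left out. The genes most like TLR1 are not reported here.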

Additional observations from a re-analysis of the deposited data

How the results depend on the processing

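A filter at a mean FPKM of 1 left 4 of the 8 genes to test, and the members called were then 1 with TNF-α, 3 with the knockdown and 2 for the knockdown against 5-OH-TMT. In the pathway list, 5-OH-TMT called 2 genes in a fit of only the groups compared and 1 with voom, and the knockdown called 9, where the count in the report was 14, both with the filter at 1 and with only the groups compared. For the knockdown against 5-OH-TMT the pathway count was 6 to 10 with a library left out. Over all genes, 5-OH-TMT called 7, but 911 with only the groups compared, 236 with voom and 127 with the filter at 1. Replicate numbers did not pair the libraries (correlation of same-numbered deviations -0.10 to 0.038, 0 of 18 over 0.1), and with the replicate number as a block the members called in the knockdown were 5, MYD88 having an adjusted p of 0.0753. MYD88 in the knockdown also missed the threshold without the filter (0.0912), with only the groups compared (0.139) and without the trend (0.0841). NOD2 in the knockdown missed it with only the groups compared (0.0689), and against 5-OH-TMT with a pseudocount of 0.01 (0.0610) and in 5 of 6 leave-outs. IRAK2 in the knockdown against 5-OH-TMT missed it with only the groups compared (0.0504). Changes near 0 reversed, none of them called. With TNF-α, MYD88 was 0.019 without medium library 2 and 0.053 without TNF-α library 3 (range with a library left out -0.17 to 0.053). With 5-OH-TMT, NOD2 was -0.013 with a pseudocount of 1, -0.070 under quantile normalization, and -0.023, -0.31 and -0.050 without TNF-α library 1 or 2 or 5-OH-TMT library 1 (-0.31 to 0.33). RIPK2 was -0.031 with voom, and -0.089 and -0.034 without TNF-α library 2 or 5-OH-TMT library 3 (-0.089 to 0.075). TLR4 was 0.039, 0.013 and 0.041 without TNF-α library 2 or 3 or 5-OH-TMT library 1 (-0.26 to 0.041). For the knockdown against 5-OH-TMT, NOD1 was -0.061 under quantile normalization, and -0.052 and -0.072 without 5-OH-TMT library 2 or knockdown library 3 (-0.072 to 0.085), and MYD88 was -0.064 and -0.052 without knockdown library 1 or 3 (-0.064 to 0.14). The cause of these moves was not tested.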

Other observations

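Genes with any read numbered 21721 to 22189 in the medium libraries, 21536 to 22451 with TNF-α, 22085 to 22284 with 5-OH-TMT and 22603 to 23211 with the knockdown.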
